A study of Mus musculus with 6 samples.

Results

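The Hox genes of the mouse lie in 4 clusters, A to D, and the genes of a cluster are numbered by paralogue group from 1 to 13. All array rows with a single gene symbol of the form Hoxa, Hoxb, Hoxc or Hoxd followed by a number alone were taken, and for each gene the row with the highest mean over the 6 arrays was used. This gave 36 of the 22180 genes measured: 9 in cluster A, 10 in cluster B, 9 in cluster C and 8 in cluster D. Hoxa11 and Hoxd4 appeared only in rows that carry several symbols, which are described separately.

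The samples were pooled hearts of C57BL/6 embryos at embryonic day 9.5. In 3 pools the embryos were Hdac3-flox/flox, so both copies of the histone deacetylase gene Hdac3 carried recombination sites, and the labels list no Cre. In the other 3 pools, called Hdac3-Isl1KO, the genotype was Hdac3-flox/flox with Isl1-Cre, which recombines the gene in cells that express Isl1, such as those of the second heart field. All 6 pools therefore carried the floxed allele, but Cre is listed only for Hdac3-Isl1KO, so the presence of Isl1-Cre and the loss of Hdac3 cannot be told apart. A whole heart also holds many cells that never express Isl1. The sources used here do not give the number of hearts per pool or their litters, so p-values reflect variation from pool to pool, part of which may be technical. The comparison asks how the second heart field loss of Hdac3 alters expression in the heart.

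Hox genes encode homeodomain transcription factors that give cells their position along the head-to-tail axis. Within a cluster, genes with low numbers are switched on early and toward the head, and genes with high numbers later and toward the tail, an order known as collinearity. Retinoic acid activates the low-numbered genes, Polycomb complexes keep silent genes repressed, and Pbx and Meis proteins bind DNA together with Hox proteins. In the heart, Hoxb1 and Hoxa3 are known from the posterior part of the second heart field, which contributes to the outflow tract and the atria, while high-numbered genes are known from the limbs, the tail region and the urogenital tract.

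Values are RMA levels, a log2 scale on which a difference of 1 is a 2-fold change. Probe sets differ in how strongly they bind, so levels of different genes do not rank their RNA amounts. Across the 6 arrays the median gene lay between 6.02 and 6.08, and pairs of arrays correlated over all genes at 0.989 to 0.995. The array least like the rest was Hdac3-flox/flox replicate 2, at a mean of 0.991. The labelled tissue was borne out by its markers: all 12 heart muscle genes examined, such as Tnnt2, Actc1 and Myh6, had mean levels between 9.48 and 13.4. Hdac3 read 9.67, 9.73 and 9.64 in Hdac3-flox/flox and 9.11, 9.20 and 9.31 in Hdac3-Isl1KO, a difference of -0.47 (95% interval -0.66 to -0.29, limma adjusted p = 0.0636), so the groups did not overlap but the adjusted threshold of 0.05 was missed; over the settings the limma adjusted p of Hdac3 ran from 0.00111 to 0.244. Isl1, the gene whose expression sets where the Cre acts, had a mean level of 7.32 and a difference of -0.03, with overlapping groups. Precision is limited by the number of arrays. In pooled tissue, fewer cells that express a gene and less RNA per cell cannot be told apart.

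Most Hox genes read toward the dim end of the scale in both genotypes. Their mean levels ran from 3.84 for Hoxc5 to 6.22 for Hoxa4, with a median of 4.94, where the median over all genes was 6.05 and the 25th percentile 4.72. As a yardstick for genes that embryonic heart should hardly express, 1088 olfactory receptor genes had a median of 3.48 and a 95th percentile of 5.42. Of the 36 Hox genes, 5 lay above that 95th percentile, and 60.8% of all genes did. The 5 were Hoxa4, Hoxb1, Hoxb3 and Hoxb5, from the head end and middle of their clusters, and Hoxd10, from the tail end. The nearest values on either side of the line were 5.47 for Hoxb3 and 5.40 for Hoxb2. Against the 25th percentile of all genes as the yardstick, 25 of the 36 lay above. Rows shared with another symbol are not in these counts. Hoxa3 also had such a row, at a mean of 6.16, above the olfactory receptor 95th percentile. Hoxb3 and Hoxb2 shared a row at a mean of 7.16, above that percentile and above the median over all genes. No detection calls were used here, so a dim value cannot be separated from background, and RMA compresses the differences of dim probe sets.

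**Figure D1:**
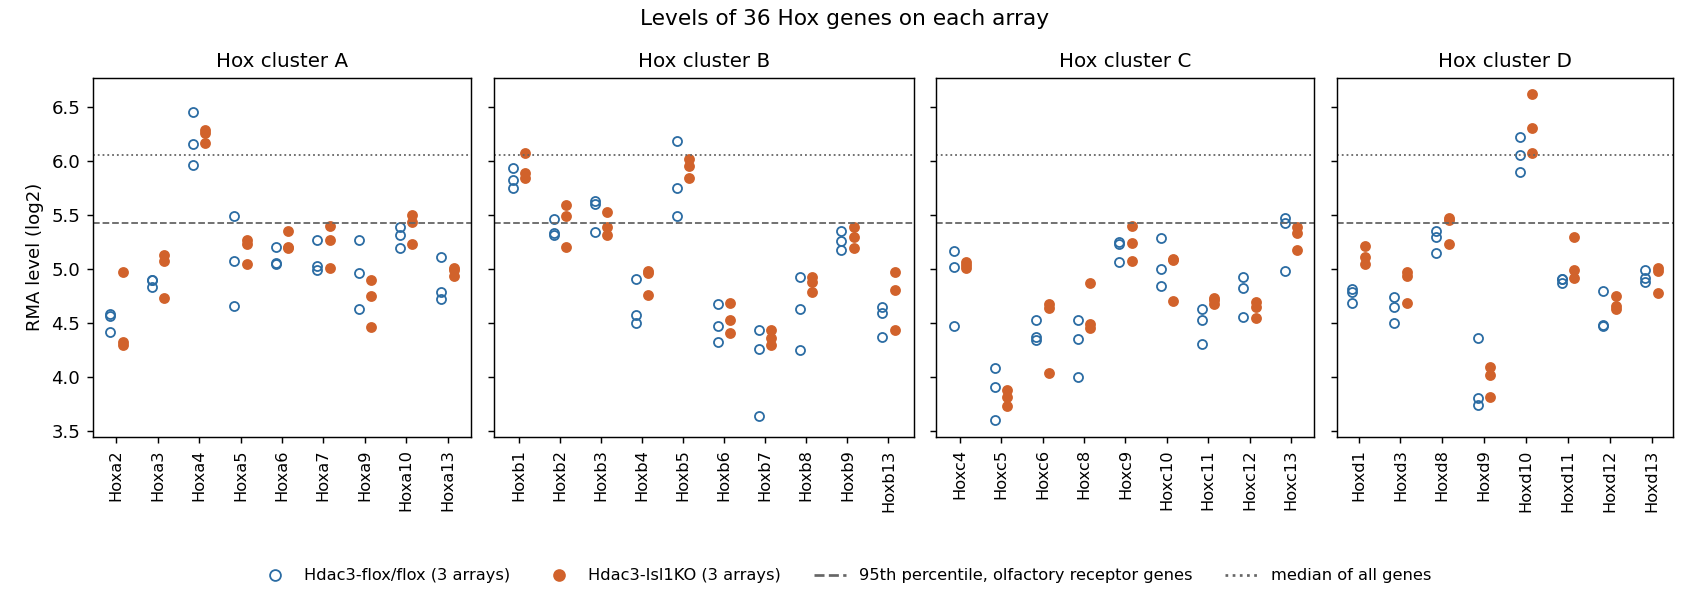
RMA level (log2, vertical axis) of each of the 36 Hox genes on each array, by cluster and paralogue number, with open circles for the 3 Hdac3-flox/flox arrays and filled circles for the 3 Hdac3-Isl1KO arrays. The dashed line is the 95th percentile of olfactory receptor genes, 5.42, and the dotted line the median of all genes, 6.05; 31 of the 36 gene means lie at or under the dashed line.

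No Hox gene passed the test across all genes. With limma and Benjamini-Hochberg adjustment, 0 of the 36 passed an adjusted p of 0.05, and 0.428% of all genes did. At an unadjusted p under 0.05 there was 1 Hox gene, Hoxd1, which is 2.78% of the 36 where 14.5% of all genes had such a p. The groups did not overlap for 3 Hox genes (8.33%), Hoxd1, Hoxc11 and Hoxd11, all higher in Hdac3-Isl1KO. Of all genes 21.8% had groups that did not overlap, and 9.41% of all genes did so with Hdac3-Isl1KO higher, so the Hox share was below the first and near the second. The 36 differences, always Hdac3-Isl1KO minus Hdac3-flox/flox, ran from -0.25 for Hoxa9 to 0.36 for Hoxd1, and the 95% interval held 0 for 35 of them. All 36 intervals lay within a log2 change of 1 either way, and the outermost bounds were -0.68 for Hoxa9 and 0.71 for Hoxb7, or 1.61-fold lower and 1.64-fold higher. For 25 of the 36 the interval lay within 0.5 either way. A 2-fold change in the measured values of any of these genes therefore lay outside its interval, on a scale that understates the changes of dim genes.

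**Figure D2:**
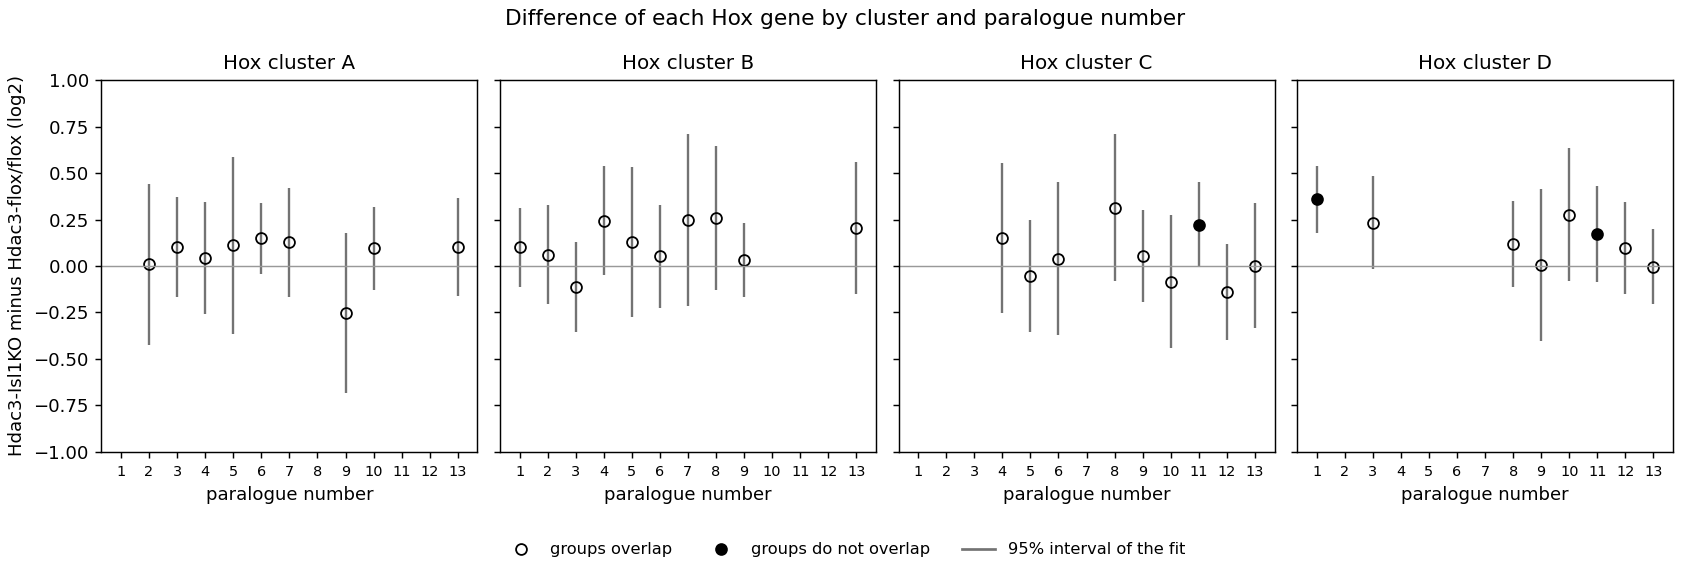
Difference of each Hox gene, Hdac3-Isl1KO minus Hdac3-flox/flox (log2, vertical axis), by paralogue number (horizontal axis) in each cluster, with the 95% interval of the fit as bars. Filled points are the 3 genes whose groups did not overlap, Hoxd1, Hoxc11 and Hoxd11; the interval of Hoxd1 alone lies clear of 0.

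Hoxd1, the head-end gene of cluster D, had the smallest p. It read 4.69, 4.79 and 4.82 in Hdac3-flox/flox and 5.05, 5.21 and 5.11 in Hdac3-Isl1KO. Every Hdac3-Isl1KO array lay above every Hdac3-flox/flox array, and the gap between the groups exceeded the range within each. The means were 4.77 ± 0.07 and 5.12 ± 0.08 (SD, n = 3 each). The difference was 0.36 (95% interval 0.18 to 0.54), or 1.28-fold, with a limma adjusted p = 0.124. By that p it ranked 407 among all genes, and 5.36% of all genes had a difference at least as large in either direction. The difference was between 0.31 and 0.40 with any 1 array left out, and the limma adjusted p ranged from 0.0613 to 0.343 over all settings. Its level lay below the olfactory receptor 95th percentile in both groups.

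Because Hoxd1 had the smallest p, because Hoxb1 had the highest level in cluster B and because Hoxd3 stood beside Hoxd1 in cluster D, the windows around their RefSeq start sites are shown, from 250 bases before to 50 after the start (GRCm38.p6, all on the + strand). Hoxd1 lies at chr2:74762730-74763029, Hoxd3 at chr2:74711743-74712042 and Hoxb1 at chr11:96365508-96365807. Capitals mark matches to TGATNNAT, letters bound by Hox and Pbx proteins together, or to TTTATG, letters bound by Cdx proteins, on either strand; each window holds at most 1 match, so none overlap.
Hoxd1: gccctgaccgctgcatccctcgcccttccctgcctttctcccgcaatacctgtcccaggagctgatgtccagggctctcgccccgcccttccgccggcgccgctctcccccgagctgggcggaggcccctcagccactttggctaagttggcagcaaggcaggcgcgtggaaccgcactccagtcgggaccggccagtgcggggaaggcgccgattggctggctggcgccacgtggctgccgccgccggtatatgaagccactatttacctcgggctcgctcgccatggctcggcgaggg
Hoxd3: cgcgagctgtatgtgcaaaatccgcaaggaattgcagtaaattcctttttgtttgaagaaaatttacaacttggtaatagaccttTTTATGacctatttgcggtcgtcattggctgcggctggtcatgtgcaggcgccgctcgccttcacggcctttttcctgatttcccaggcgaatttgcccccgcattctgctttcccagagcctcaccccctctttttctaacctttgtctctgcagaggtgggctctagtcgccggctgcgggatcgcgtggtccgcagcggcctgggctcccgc
Hoxb1: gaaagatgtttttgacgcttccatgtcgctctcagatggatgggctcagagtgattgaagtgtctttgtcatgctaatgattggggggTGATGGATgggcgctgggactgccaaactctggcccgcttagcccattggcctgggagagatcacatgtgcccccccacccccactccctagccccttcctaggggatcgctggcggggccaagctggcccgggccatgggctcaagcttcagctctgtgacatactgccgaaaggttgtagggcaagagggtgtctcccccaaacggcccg

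The Hoxd1 window held neither set of letters and was rich in G and C, at 69.7% with 29 CpG pairs. In Hoxd3 the TTTATG letters began at -165 from the start, and in Hoxb1 the TGATNNAT letters began at -162. Hoxb1 protein is known to act with Pbx on its own upstream DNA in the hindbrain. The promoter table held 22 windows for 20 of the 36 genes. TTTATG was found in 4 of the 22, for Hoxa7, Hoxb8, Hoxd3 and Hoxd11, and in 11.9% of all 32851 windows of the same length; TGATNNAT was found in 4 of the 22, for Hoxa2, Hoxb1, Hoxb8 and Hoxd11, and in 8.85% of all windows. Direct repeats of AGGTCA spaced by 2 or 5 bases, the form that retinoic acid receptors bind, were in 0 of the 22 windows and in 3 of all windows for each spacing. The Hox windows had a median of 17 CpG pairs, with a range of 4 to 45, against 7 over all windows. These matches describe letters and are not shown to be binding sites.

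The other head-end genes, with paralogue numbers 1 to 3, are those best known from heart progenitors, and none of them separated the genotypes. Hoxb1 read 5.75, 5.82 and 5.94 in Hdac3-flox/flox and 5.85, 5.89 and 6.08 in Hdac3-Isl1KO, a difference of 0.10 (95% interval -0.11 to 0.31). Hoxa3 read 4.90, 4.90 and 4.83 against 5.07, 5.13 and 4.73, a difference of 0.10 (-0.17 to 0.37). In both genes the groups overlapped, and in Hoxa3 the lowest value of all 6 was a Hdac3-Isl1KO array. Hoxa2, which sets the identity of the second pharyngeal arch, read 4.59, 4.42 and 4.56 against 4.97, 4.32 and 4.30, so 1 Hdac3-Isl1KO array was the highest and the other two were the lowest. Its difference was 0.0096 (-0.42 to 0.44).

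Hoxb2, a hindbrain gene, read 5.32, 5.33 and 5.47 in Hdac3-flox/flox and 5.21, 5.50 and 5.60 in Hdac3-Isl1KO, a difference of 0.06 (95% interval -0.21 to 0.33). Hoxb3, which acts in the hindbrain and the pharyngeal region, read 5.63, 5.60 and 5.34 against 5.32, 5.53 and 5.39, a difference of -0.11 (-0.36 to 0.13). It was the only gene of this band below 0, and its groups overlapped. Hoxd3 read 4.74, 4.50 and 4.65 against 4.98, 4.68 and 4.93, a difference of 0.23 (-0.02 to 0.49). Of its Hdac3-Isl1KO arrays 2 lay above all Hdac3-flox/flox arrays and 1 lay among them. The limma adjusted p-values of Hoxb1, Hoxa3, Hoxa2, Hoxb2, Hoxb3 and Hoxd3 were between 0.378 and 0.988.

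The middle genes, with paralogue numbers 4 to 8, pattern the neck and trunk. Hoxa4, with the highest value of cluster A, read 5.97, 6.16 and 6.46 in Hdac3-flox/flox and 6.29, 6.17 and 6.26 in Hdac3-Isl1KO, a difference of 0.04 (95% interval -0.26 to 0.35). The Hdac3-Isl1KO arrays all lay inside the range of the others. Hoxb4 read 4.91, 4.50 and 4.57 against 4.76, 4.98 and 4.96, a difference of 0.24 (-0.05 to 0.54), with 1 Hdac3-flox/flox array among the Hdac3-Isl1KO values. Hoxa6, a trunk gene of cluster A, read 5.05, 5.04 and 5.20 against 5.35, 5.19 and 5.20, a difference of 0.15 (-0.04 to 0.34). Its groups also overlapped.

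For both paralogues of group 8 with the larger differences, a low Hdac3-flox/flox replicate 2 stood apart. Hoxb8 read 4.63, 4.25 and 4.93 in Hdac3-flox/flox and 4.93, 4.78 and 4.88 in Hdac3-Isl1KO, a difference of 0.26 (95% interval -0.13 to 0.65). Hoxc8 read 4.357, 4.001 and 4.528 against 4.457, 4.875 and 4.494, a difference of 0.31 (-0.08 to 0.71). In each gene Hdac3-flox/flox replicate 2 was the lowest array and the groups overlapped through Hdac3-flox/flox replicate 3, which in Hoxb8 was the highest array of all. With any 1 array left out, the difference lay between 0.08 and 0.42 for Hoxb8 and between 0.17 and 0.43 for Hoxc8. The limma adjusted p-values of Hoxa4, Hoxb4, Hoxa6, Hoxb8 and Hoxc8 were between 0.429 and 0.908. Hoxb5, which is known from the gut and vagus nerve region, had a pair of rows: the brighter differed by 0.13 (-0.31 to 0.56, fitted over all rows) and the dimmer, at nearly the same mean level, 5.83 against 5.88, by -0.00029 (-0.19 to 0.19).

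The tail-end genes, with paralogue numbers 9 to 13, pattern the lower trunk, limbs and tail. Hoxc11 read 4.30, 4.53 and 4.63 in Hdac3-flox/flox and 4.74, 4.68 and 4.72 in Hdac3-Isl1KO, a difference of 0.22 (95% interval -0.0041 to 0.45). Hoxd11, a limb gene, read 4.91, 4.91 and 4.87 against 5.30, 4.91 and 4.99, a difference of 0.17 (-0.08 to 0.43). In neither gene did the groups overlap, but the gaps between them were narrow: Hdac3-Isl1KO replicate 2 and the Hdac3-flox/flox maximum of Hoxd11 both read 4.91 at this rounding.

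Hoxd10, with the highest value of cluster D, read 6.05, 5.90 and 6.22 in Hdac3-flox/flox and 6.08, 6.30 and 6.62 in Hdac3-Isl1KO, a difference of 0.28 (95% interval -0.08 to 0.63). Its groups overlapped. Hoxa9 read 4.96, 5.27 and 4.63 against 4.46, 4.90 and 4.75, and its difference of -0.25 (-0.68 to 0.18) was the lowest of the 36, with overlapping groups. Hoxc13, with the highest value of cluster C, read 5.48, 4.99 and 5.43 against 5.18, 5.33 and 5.39, a difference of 0.0018 (-0.33 to 0.34). The limma adjusted p-values of Hoxc11, Hoxd11, Hoxd10, Hoxa9 and Hoxc13 were between 0.354 and 0.997.

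The other 19 Hox genes had array values between 3.60 and 6.19 and differences between -0.14 and 0.25, 15 above 0 and 4 below, with limma adjusted p-values from 0.580 to 0.993. The groups of all 19 overlapped. They were Hoxa5, Hoxa7, Hoxa10 and Hoxa13 in cluster A, Hoxb5, Hoxb6, Hoxb7, Hoxb9 and Hoxb13 in cluster B, Hoxc4, Hoxc5, Hoxc6, Hoxc9, Hoxc10 and Hoxc12 in cluster C, and Hoxd8, Hoxd9, Hoxd12 and Hoxd13 in cluster D. Hoxb7 was the highest of them at 0.25 and Hoxc12 the lowest at -0.14. Hoxd9 and Hoxd13 were the nearest to 0, at 0.0055 and -0.0033.

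By cluster, most differences were slightly above 0; no cluster was tested against another. In cluster A 8 of 9 differences were above 0 with a median of 0.10, in cluster B 9 of 10 with 0.11, in cluster C 6 of 9 with 0.04, and in cluster D 7 of 8 with 0.15. Over settings the median of cluster C changed sign, from -0.04 without Hdac3-Isl1KO replicate 3 to 0.14 without Hdac3-Isl1KO replicate 1, while the median of cluster D stayed between 0.09 and 0.22 among settings that tested all 36 genes. By position, 6 of 7 genes numbered 1 to 3 were above 0 with a median of 0.10, 13 of 14 numbered 4 to 8 with 0.13, and 11 of 15 numbered 9 to 13 with 0.05. The medians did not run in one order from head to tail: those of single paralogue groups were 0.23 for group 1 (2 genes), 0.04 for group 2 (2 genes), 0.26 for group 8 (3 genes), 0.02 for group 9 (4 genes), 0.20 for group 11 (2 genes) and -0.02 for group 12 (2 genes).

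Of all clusters together, 30 of the 36 Hox differences were above 0 (83.3%), with a median of 0.10, where 11093 of all 22180 genes were above 0 with a median of 9.4e-05. Genes at the same dim end leaned the same way to a smaller extent: of the 8702 genes not above the olfactory receptor 95th percentile, 58.2% were above 0 with a median of 0.03. The 1088 olfactory receptor genes themselves leaned less, with 52.8% above 0 and a median of 0.02. The median deviation of the Hox genes from their own means over the 6 arrays was -0.09, -0.12 and 0.04 in Hdac3-flox/flox replicates 1, 2 and 3 and 0.01, 0.07 and 0.09 in Hdac3-Isl1KO replicates 1, 2 and 3. The groups overlapped, since Hdac3-flox/flox replicate 3 lay above Hdac3-Isl1KO replicate 1. Hdac3-flox/flox replicate 2 held the lowest value for 17 of the 36 Hox genes and replicate 1 for 9, where 20.5% and 13.9% of all genes had their lowest value in those arrays. The part of single arrays and of dim probe sets in the Hox lean was not tested.

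Without Hdac3-flox/flox replicate 2, the median was 0.06 and 25 of 36 differences were above 0. With Hdac3-flox/flox replicate 3 left out instead it was 0.14 with 30 above 0, and after quantile normalization of the deposited values it was 0.05 with 25 above 0. Of the 36 genes, 21 kept their sign with each array left out in turn, 18 of them higher in Hdac3-Isl1KO and Hoxa9, Hoxb3 and Hoxc12 lower, and 15 changed sign with at least 1 array left out. The median SD per Hox gene was 0.16 in Hdac3-flox/flox and 0.12 in Hdac3-Isl1KO. The SD of Hdac3-flox/flox was the larger in 20 of the 36 genes, and in 55.9% of all genes. In cluster D the median SDs stood the other way, at 0.12 in Hdac3-flox/flox and 0.14 in Hdac3-Isl1KO, as they did for genes numbered 1 to 3, at 0.09 and 0.16.

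**Figure D3:**
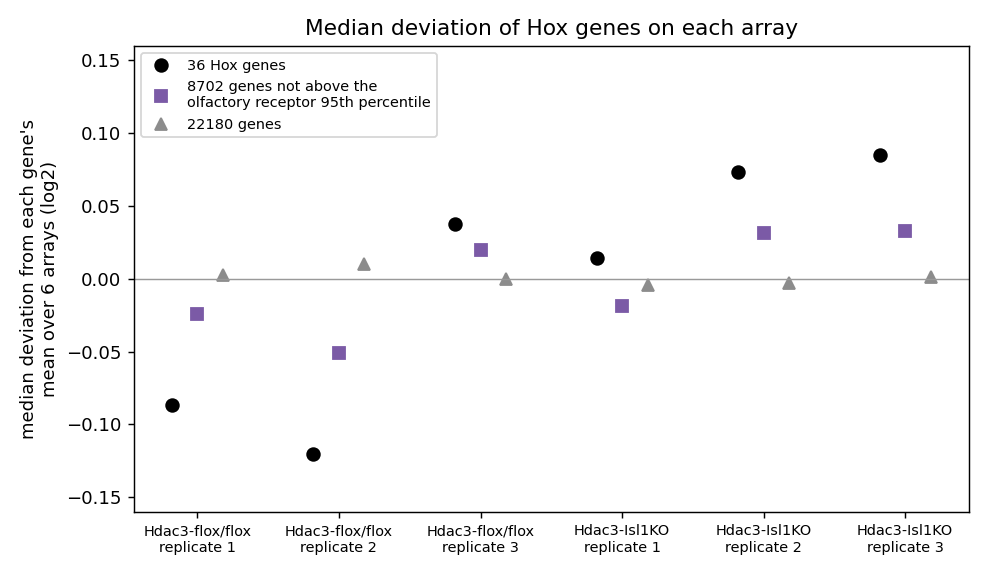
Median deviation from each gene's own mean over the 6 arrays (log2, vertical axis) on each array, for the 36 Hox genes (circles), the 8702 genes not above the olfactory receptor 95th percentile (squares) and all 22180 genes (triangles). The Hox genes lie at -0.09 and -0.12 in Hdac3-flox/flox replicates 1 and 2 and above 0 in the other 4 arrays, and the dim genes lean the same way in every array but Hdac3-Isl1KO replicate 1.

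Hearts dissected at this stage can carry neighbouring tissue in which Hox genes are active, so markers of such tissue are set beside the Hox values. Neural tube and hindbrain markers had 10 of 13 measured genes above 0 with a median of 0.08, and their mean level per array ran from 5.27 to 5.33 in Hdac3-flox/flox and from 5.33 to 5.39 in Hdac3-Isl1KO. Of those 13 genes, 6 lay above the olfactory receptor 95th percentile. Limb bud and body wall markers had 8 of 9 above 0 (median 0.08, per-array means 5.65 to 5.82 and 5.71 to 5.91), somite markers 5 of 10 (median -0.02, 5.61 to 5.71 and 5.68 to 5.78), neural crest markers 7 of 9 (median 0.12, 5.82 to 5.97 and 5.93 to 6.01) and markers of the posterior embryo 6 of 8 (median 0.11, 5.05 to 5.18 and 5.16 to 5.29). Intermediate mesoderm markers had 5 of 6 above 0 (median 0.08, 5.25 to 5.33 and 5.33 to 5.35). In each of these 6 lists 0 genes passed the adjusted threshold in limma, and 0 to 2 had an unadjusted p under 0.05. The groups of 0 to 3 genes per list did not overlap, the 3 being among the somite markers. Of all genes, 14.5% had an unadjusted limma p under 0.05 and 21.8% had groups that did not overlap.

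Markers of trophoblast and of liver and yolk sac endoderm differed more. Of 9 trophoblast genes measured 8 were above 0, with a median of 1.22. In limma 5 of the 9 passed the adjusted threshold, all higher in Hdac3-Isl1KO, where 0.428% of all genes passed it. The trophoblast list mean per array was 5.29 to 5.45 in Hdac3-flox/flox and 6.12 to 6.22 in Hdac3-Isl1KO. Of 11 liver and yolk sac genes 9 were above 0, with a median of 0.23, and 1 (Fgb) passed the adjusted threshold, higher in Hdac3-Isl1KO. Of these 11, 5 had an unadjusted limma p under 0.05, all higher in Hdac3-Isl1KO. The groups of 7 did not overlap, and the list means were 5.11 to 5.30 and 5.53 to 5.56. Markers of allantois and extraembryonic mesoderm, a tissue in which tail-end Hox genes are known to be active, had 4 of 7 above 0 with a median of 0.07. Their per-array means were 8.21 to 8.24 and 8.18 to 8.33, and their levels ran from 4.92 to 13.5. Of these 7, 0 passed the adjusted threshold in limma, 1 had an unadjusted p under 0.05, higher in Hdac3-Isl1KO, and the groups of 4 did not overlap. Pharyngeal endoderm and epithelium markers had 9 of 10 above 0, with a median of 0.22 and means of 6.01 to 6.16 and 6.26 to 6.38. Of these 10, 0 passed the adjusted threshold in limma, 5 had an unadjusted p under 0.05, all higher in Hdac3-Isl1KO, and the groups of 6 did not overlap. Second heart field markers had 7 of 11 above 0, with a median of 0.07 and means of 6.96 to 6.98 and 6.98 to 7.03. Of these 11, 0 passed the adjusted threshold in limma, 1 higher and 1 lower had an unadjusted p under 0.05, and the groups of 4 did not overlap. Heart muscle markers had 3 of 12 above 0 and 9 below, with a median of -0.07 and means of 11.37 to 11.39 and 11.29 to 11.32, which did not overlap. Of these 12, 0 passed the adjusted threshold in limma, 3 had an unadjusted p under 0.05, Myl7 at 0.16, Myl2 at -0.29 and Ttn at -0.19, and the groups of 9 did not overlap. The shares over all genes were 14.5% with an unadjusted limma p under 0.05 and 21.8% with groups that did not overlap. The part of any of these tissues in the Hox values was not tested.

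Rows that carry a Hox symbol together with another symbol were fitted with every row of the table, and none passed the adjusted threshold. The row for Hoxd4 and Hoxd3 had means of 4.94 ± 0.10 and 4.87 ± 0.16 (SD, n = 3 each), a difference of -0.07 (95% interval -0.34 to 0.20). The rows for Hoxa11 with its antisense gene Hoxa11os had differences of -0.02 (-0.25 to 0.21) and 0.31 (-0.11 to 0.72), and both intervals held 0. The row for Hoxb3 and Hoxb2 had the highest level of all Hox rows, 7.16, and a difference of -0.0043 (-0.26 to 0.25). A row for Hoxa3 and another symbol had a mean of 6.16, brighter than the Hoxa3 row counted above, and a difference of 0.07 (-0.17 to 0.32). Limma adjusted p-values of the 7 such rows were between 0.552 and 0.993, and the groups overlapped in all 7. Transcripts of neighbouring Hox genes overlap, so a row may read more than the gene it is named for.

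The clusters also hold microRNA genes that target Hox transcripts, and long noncoding genes. Their mature forms are shown because paralogous clusters share seeds, the bases 2 to 8 in capitals (RefSeq, GRCm38.p6): miR-10a of cluster B at chr11:96317186-96317208 and miR-10b of cluster D at chr2:74726074-74726096, both on the + strand, share one seed, and miR-196a, made from genes in clusters B (chr11:96265187-96265208, + strand) and C, and miR-196b of cluster A (chr6:52230129-52230150, - strand) share another.
miR-10a-5p: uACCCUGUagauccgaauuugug
miR-10b-5p: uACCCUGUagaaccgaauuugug
miR-196a-5p: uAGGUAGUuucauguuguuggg
miR-196b-5p: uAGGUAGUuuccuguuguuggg

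The array rows for these genes read total RNA and do not tell the precursor from the mature form. Mir10b read 3.03, 2.61 and 2.70 in Hdac3-flox/flox and 2.52, 2.67 and 2.70 in Hdac3-Isl1KO, a difference of -0.15 (95% interval -0.43 to 0.14), with overlapping groups. A row shared by Mir10a and Hoxb4 read at a mean of 2.38 and differed by 0.05 (-0.21 to 0.31). Mir196a-2, in cluster C, read 4.26, 4.34 and 4.51 against 4.14, 4.31 and 4.12, a difference of -0.19 (-0.41 to 0.04), and Mir196a-1, in cluster B, differed by -0.03 (-0.66 to 0.59). Mir615, also in cluster C, differed by 0.22 (-0.13 to 0.57).

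Hoxd3os1, transcribed opposite to Hoxd3, read 4.57, 4.61 and 5.21 in Hdac3-flox/flox and 4.99, 5.24 and 5.24 in Hdac3-Isl1KO. Its difference of 0.36 (95% interval -0.06 to 0.78) was close in size to that of Hoxd1, but its groups overlapped and its interval was wider. Hotair, a long noncoding gene of cluster C, differed by 0.08 (-0.21 to 0.36) and Hoxaas3, of cluster A, by -0.03 (-0.32 to 0.27). Of the 7 noncoding cluster genes measured 0 passed the adjusted threshold or an unadjusted p of 0.05 in limma, 3 differences were above 0 and 4 below, and the median was -0.03.

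Genes next to the clusters lay on both sides of 0, and they were not tested against the Hox genes. Of 13 measured, 6 differences were above 0 and 7 below, with a median of -0.10. In limma 0 passed the adjusted threshold and 2 had an unadjusted p under 0.05, where 14.5% of all genes had such a p. The groups of 4 did not overlap, where 21.8% of all genes had groups that did not. Hibadh, a valine breakdown enzyme gene near cluster A, read 9.376, 9.509 and 9.192 in Hdac3-flox/flox and 9.150, 8.996 and 8.908 in Hdac3-Isl1KO, a difference of -0.34 (95% interval -0.59 to -0.09, limma adjusted p = 0.235, from 0.0478 to 0.472 over the settings). Snx11 and Calcoco1, near clusters B and C, differed by -0.20 and -0.13 (limma adjusted p = 0.261 and 0.442).

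The partners of Hox proteins were measured above the dim range, and none passed the threshold. All 8 cofactor genes measured, of the Pbx, Meis and Pknox families, lay above the olfactory receptor 95th percentile, at mean levels from 6.12 to 10.04. Of these 0 had an unadjusted p under 0.05 in limma, so 0 passed the adjusted threshold, and the median difference was 0.08. Meis3 differed by 0.25 (95% interval -0.08 to 0.58), Pknox1 by -0.16 (-0.39 to 0.08) and Pknox2 by 0.14 (-0.07 to 0.34). Of 6 regulators that switch Hox genes on, such as the Cdx genes and Egr2, 0 passed the adjusted threshold. Egr2, which activates Hoxa2 and Hoxb2 in the hindbrain, was the 1 of the 6 with an unadjusted limma p under 0.05, where 14.5% of all genes had such a p. It read 5.22, 5.20 and 5.19 in Hdac3-flox/flox and 5.32, 5.43 and 5.43 in Hdac3-Isl1KO (limma adjusted p = 0.256), without overlap, at levels below the olfactory receptor 95th percentile except in 2 arrays. Gbx2 and Cdx1 differed by 0.18 and 0.11. The groups of 2 of the 6, Egr2 and Gbx2, did not overlap, where 21.8% of all genes had groups that did not.

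Of 18 retinoic acid pathway genes measured, 9 differences were above 0 and 9 below. In limma 1 passed the adjusted threshold, lower in Hdac3-Isl1KO, where 0.428% of all genes passed it. An unadjusted limma p under 0.05 was found for 2 higher and 3 lower genes, where 14.5% of all genes had such a p. The groups of 6 of the 18 did not overlap, where 21.8% of all genes had groups that did not. Aldh1a1, which makes retinoic acid, read 7.90, 8.10 and 7.93 in Hdac3-flox/flox and 7.07, 7.05 and 7.12 in Hdac3-Isl1KO, a difference of -0.90 (95% interval -1.08 to -0.71, limma adjusted p = 0.0124, from 0.000121 to 0.105 over the settings). Aldh1a2, the enzyme that supplies retinoic acid to the early embryo, read 6.88, 6.67 and 6.87 against 6.35, 5.89 and 6.20, a difference of -0.66 (-0.97 to -0.35, limma adjusted p = 0.101, from 0.0129 to 0.289 over the settings). Crabp2, which carries retinoic acid to its receptors, differed by 0.57 (0.30 to 0.84, limma adjusted p = 0.105, from 0.0105 to 0.324 over the settings). Beside these, Hoxb1, a gene that retinoic acid is known to activate, differed by 0.10 with overlapping groups, as given above. No test linked the values of the enzymes to those of the Hox genes.

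Of 23 Polycomb and Trithorax genes measured, whose products keep Hox genes off or on, 0 passed the adjusted threshold in limma and 2 had an unadjusted p under 0.05, with a median difference of 0.01. The shares over all genes were 0.428% past the adjusted threshold and 14.5% with an unadjusted limma p under 0.05. Ezh1, a histone methyltransferase of Polycomb complex 2, read 7.94, 7.95 and 7.99 in Hdac3-flox/flox and 7.64, 7.71 and 7.67 in Hdac3-Isl1KO, a difference of -0.28 (95% interval -0.43 to -0.14, limma adjusted p = 0.136, from 0.0201 to 0.357 over the settings). Its groups did not overlap, which held for 7 of the 23 genes and for 21.8% of all genes. Ring1, of Polycomb complex 1, and Mtf2, a partner of complex 2, differed by -0.22 and -0.16 (limma adjusted p = 0.260 and 0.407).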

How the data were processed

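Total RNA of pooled hearts was labelled with the Affymetrix WT PLUS kit and hybridised to 6 arrays, per the labels' protocols. The authors deposited log2 expression values made with oligo and RMA, per the submitters' processing notes; RMA subtracts background, equalises the arrays' distributions by quantiles and combines the probes of a set, which compresses low values. The sources used here do not give versions, build or annotation. Of 41345 rows, 23521 had 1 gene symbol, 1814 several and 16010 none listed; 23328 were matched by gene number to RefSeq (GRCm38.p6), and 0 symbols changed. One row per gene, the one with the highest mean, left 22180 genes. The test was limma's moderated test (lmFit, eBayes; limma version 3.58.1 under R version 4.3.3; two-sided, 4 residual degrees of freedom, 6.92 with the prior), adjusted over all genes at 0.05, with no filter and no block. The steps were tested on simulated data. Plots used matplotlib 3.10.9.

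The members, the gene lists and the alternatives were chosen with earlier results of these data known. Values on every array are given for the 10 Hox genes with the smallest p, the highest value in each cluster and Hoxa2, Hoxa3, Hoxb1, Hoxb2 and Hoxb3; of the cofactor, regulator, pathway and cluster lists, the genes past the threshold and the 3 with the smallest p are named, some by their difference alone. Marker lists are given by counts, and the few markers named, like the noncoding genes beyond the 3, were chosen with their values in view. As alternatives the fit was repeated with the replicate number as a block, with single arrays left out, after quantile normalization or median centring, with dim genes removed, with rows averaged per gene, with a trended prior, with array weights and, for position, the bands 1 to 4 and 5 to 8. The dimmer row of Hoxb5 and the fit over every row were added after the data were seen.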

Additional observations from a re-analysis of the deposited data

How the results depend on the processing

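The count of 0 Hox genes past the adjusted threshold was the same under every alternative run, and the lowest adjusted p of any Hox gene over all of them was 0.0613, for Hoxd1 among genes above the 25th percentile. The Hox median difference of 0.10 lay between 0.06 and 0.14 with any 1 array left out. Over the other settings it lay between 0.05 and 0.16, the last with 2 Hox genes tested, and its sign stayed positive throughout. The median Hox deviation of single arrays had a pooled SD within groups of 0.065, which is not a spread of the median difference. The bands 1 to 4 and 5 to 8 gave medians of 0.10 and 0.13. The count over all genes, 95, depended on the processing: it was 0 with the replicate block, 2 to 25 with 1 array left out, 144 after quantile normalization, 317 and 769 among genes above the 25th percentile and the median, 866 with the trended prior and 243 with array weights. Replicate numbers did not pair the arrays: same-numbered arrays deviated together at correlations of -0.013, -0.086 and 0.040, and not every array correlated best with its own number, so the replicate block (limma adjusted p = 0.278 for Hoxd1, 0 Hox genes called) rests on a shared number alone. Of the yardsticks for dim genes, the 25th percentile of all genes put 25 Hox genes above it in place of 5.

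Of 220 recomputed differences of the 17 Hox genes with array values, 207 kept their direction and 13 turned, all of them in genes near 0. Hoxa2 turned to -0.036 under quantile normalization, -0.0035 after median centring and -0.087 with array weights, and ranged from -0.21 to 0.13 with 1 array left out. Hoxc13 turned to -0.047, -0.011 and -0.062 under the same settings, with a range of -0.15 to 0.092. Hoxa4 and Hoxb2 turned with 1 array left out, with ranges of -0.069 to 0.18 and -0.020 to 0.17. No detection calls were used here, so how far the dim levels of most Hox genes lie above background is not known.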
